A study of Mus musculus with 14 samples.

Results

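The genes described here carry ions, water, urea and glucose across the red cell membrane, or sit beside such carriers. They are Kcnn4, Slc4a1, Aqp1, Aqp9, Slc2a1, Slc14a1, Stom and Xk, and every probe set that the array's annotation pairs with 1 of these 8 symbols was taken. A probe set is a group of short probes designed against a gene's transcripts. This gave 21 of the 22626 probe sets that were not array controls, with 6 for Stom, 3 each for Slc4a1 and Slc2a1, 2 each for Kcnn4, Aqp9, Slc14a1 and Xk, and 1 for Aqp1. The 8 genes are among 12393 with a probe set of their own, and none of the 21 is shared with another gene symbol in the annotation.

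The samples were primitive erythroid precursors, which give the embryo its earliest red cells, laser-captured from frozen yolk sac sections at embryonic day 9.5. There were 3 arrays of KLF1-/- embryos, 3 of embryos labelled KLF1-/- KLF2-/- and 8 of wild-type embryos (WT). All are labelled as strain FVB/N, and each array holds RNA of 2 to 4 pooled yolk sacs from 2 litters. Both factors bind DNA through zinc fingers, and KLF1 drives many genes of the red cell. The labels describe germline genotypes of whole embryos, so the other yolk sac cells and the embryo lacked the same factors. The titles number the arrays from 1 to 15 and skip only the number between KLF1-/- arrays 6 and 8. The order of genotypes was used to read these numbers as 2 runs. Arrays 1 to 8 hold 4 WT and the KLF1-/- arrays, and arrays 9 to 15 hold 4 WT and the KLF1-/- KLF2-/- arrays. The labels do not say whether these runs are batches, so the results for Kcnn4, Slc4a1 and Slc2a1 are also given within the run.

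A red cell keeps its volume and carries carbon dioxide through a small set of membrane proteins. Slc4a1 is band 3, the anion exchanger that swaps chloride for bicarbonate and anchors the membrane skeleton. Kcnn4 is the Gardos channel, a potassium channel opened by calcium whose opening lets potassium and water leave. Aqp1 is a water channel, Aqp9 a channel for water and glycerol, Slc14a1 the urea transporter that carries the Kidd blood group in humans, and Slc2a1 the glucose transporter GLUT1. Stom is stomatin, a membrane protein that binds GLUT1 and band 3 in human red cells, and Xk is a membrane protein linked to the Kell blood group protein. Fetal and newborn red cells of many mammals carry GLUT1.

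The main finding concerns Kcnn4, so the DNA just before its start is shown, beside that of Slc2a1, a bright gene whose probe sets did not pass the test. Both stretches are 250 bases long, end at the base before a RefSeq transcript start (build GRCm38.p6) and are written 5′ to 3′ on the gene's strand. Capitals mark matches to CCNCNCCC on either strand, the letters common to published binding sites of KLF1. RefSeq lists another start of Kcnn4 upstream of this window.
Kcnn4 (chr7:24370013-24370262, + strand): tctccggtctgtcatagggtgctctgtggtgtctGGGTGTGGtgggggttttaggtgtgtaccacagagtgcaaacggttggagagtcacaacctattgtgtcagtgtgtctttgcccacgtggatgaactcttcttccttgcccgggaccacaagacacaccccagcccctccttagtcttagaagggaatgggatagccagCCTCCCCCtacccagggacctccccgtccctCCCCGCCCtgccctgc
Slc2a1 (chr4:119108495-119108744, + strand): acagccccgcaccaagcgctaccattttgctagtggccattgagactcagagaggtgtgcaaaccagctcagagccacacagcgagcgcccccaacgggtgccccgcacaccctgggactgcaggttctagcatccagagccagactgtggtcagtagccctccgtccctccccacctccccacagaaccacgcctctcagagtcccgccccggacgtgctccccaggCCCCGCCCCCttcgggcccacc

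Kcnn4 held 3 matches to CCNCNCCC and Slc2a1 held 2 that overlap each other. RefSeq promoters were searched for 6 of the 8 genes, in 7 windows because Aqp9 has 2 starts. Slc4a1 and Slc14a1 were not searched. All 6 genes had at least 1 match, but 1 of the 2 Aqp9 windows held none. Counted by window and not by gene, 45.9% of the 32851 RefSeq promoters had a match. The shorter CACCC, the core of the KLF1 target in the adult beta globin promoter, occurred in 5 of the 6 genes and in neither Aqp9 window. It was in 52% of all promoters. Kcnn4 held 3 of these, 1 of which lies within a CCNCNCCC match. AGATAA, a core bound by GATA factors, was in none of the 6 and in 9.99% of all promoters. These counts describe letters within this window, and binding was not measured.

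Klf1 itself gave less signal on all 6 mutant arrays than on any of the WT arrays. It was 9.45 ± 0.39 in KLF1-/-, 9.15 ± 0.53 in KLF1-/- KLF2-/- (SD, n = 3 each) and 10.67 ± 0.63 in WT (n = 8), in log2 expression after RMA, the scale of every level below. Klf2 lay between 6.36 and 7.003 on the KLF1-/- KLF2-/- arrays and between 5.90 and 6.59 on the WT arrays, so it was not lower there. No source used here places these probes against the deleted sequence, so neither level checks the labels. Hbb-y, an embryonic beta-like globin that marks these cells, was between 14.2 and 14.6 on all arrays. Single markers of visceral endoderm, mesenchyme and platelets were bright too, with WT means of 11.5 for Apoa1, 11.2 for Lum and 11.2 for Pf4. Pf4 does not stand for its list, as 6 megakaryocyte markers together averaged 6.97 to 7.48 on the WT arrays. The arrays' medians ran from 6.55 to 6.67, and 12 of the 21 probe sets lay below the median on all 14 arrays, where RMA compresses differences. These were 1 each of Kcnn4 and Slc4a1, 3 of Stom and every probe set of Aqp1, Aqp9, Slc14a1 and Xk.

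Kcnn4 fell in both mutant genotypes. On probe set 1435945_a_at it was 8.75, 7.91 and 8.42 on the KLF1-/- arrays and 8.39, 8.57 and 8.43 on the KLF1-/- KLF2-/- arrays. The 8 WT arrays ran from 9.76 to 10.8 with a median of 10.2. The highest mutant array lay a full log2 unit below the lowest WT array, and the 6 mutant arrays overlapped each other. The log2 difference was −1.90 in KLF1-/- minus WT (SE 0.241, adjusted p = 0.00868, limma with Benjamini-Hochberg adjustment over all 22626 probe sets), a level of 0.268 times WT. It was −1.80 in KLF1-/- KLF2-/- minus WT (SE 0.241, adjusted p = 0.0221, limma), or 0.287 times WT. For the mean of both mutant genotypes minus WT it was −1.85 (95% interval −2.26 to −1.44, adjusted p = 0.00107, limma). Both comparisons use the same 8 WT arrays and are not independent of each other.

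**Figure D1:**
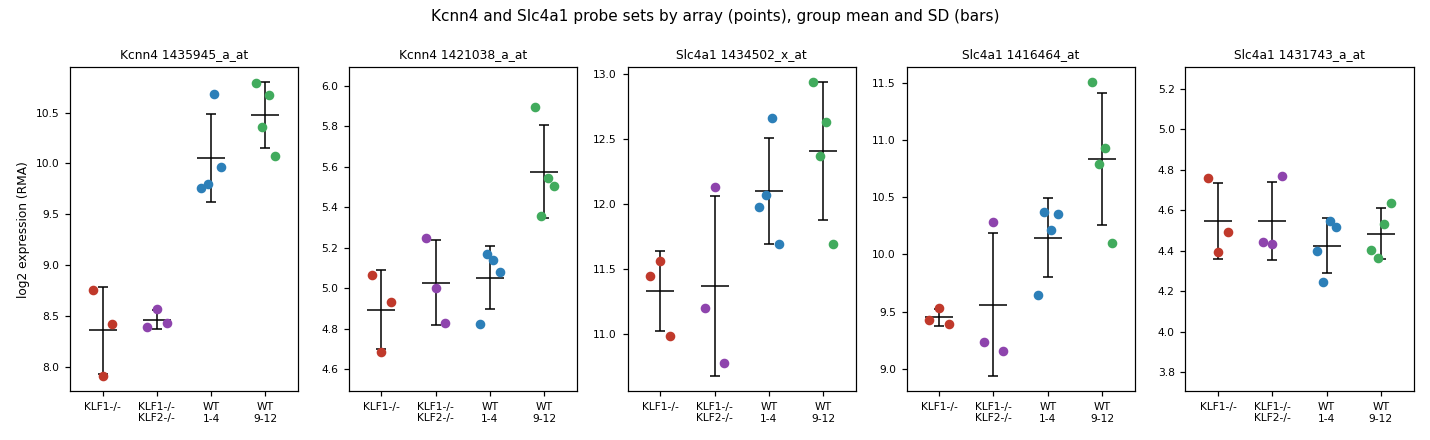
Log2 expression (RMA, vertical axis) of the Kcnn4 and Slc4a1 probe sets on each array, with KLF1-/- and KLF1-/- KLF2-/- to the left and the WT arrays of both number runs to the right; points are arrays, horizontal bars group means and whiskers the SD, and each panel has its own axis. On Kcnn4 1435945_a_at the mutant arrays end at 8.75 and the WT arrays begin at 9.76, while on the Slc4a1 probe sets 1434502_x_at and 1416464_at 1 KLF1-/- KLF2-/- array lies among the WT arrays.

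Within its own number run Kcnn4 was lower as well. WT arrays 1 to 4 averaged 10.05 ± 0.43 (SD, n = 4) and WT arrays 9 to 12 averaged 10.47 ± 0.33 (n = 4). With the run as a block the KLF1-/- difference was −1.69 (95% interval −2.23 to −1.15) and no longer passed, at an adjusted p of 0.0757 in limma. The KLF1-/- KLF2-/- difference was −2.01 (−2.55 to −1.47, adjusted p = 0.0157, limma). Fitted only on the arrays of 1 run, the adjusted p in limma was 0.467 for KLF1-/- and 0.0332 for KLF1-/- KLF2-/-. The KLF1-/- call also ended without KLF1-/- array 6 or 8 (adjusted p = 0.11 and 0.0924, limma). The KLF1-/- KLF2-/- call ended without KLF1-/- KLF2-/- array 13, 14 or 15 (0.258, 0.177 and 0.0864), without KLF1-/- array 8 (0.0516) and without WT array 10 (0.0508). Over these omissions the differences stayed between −2.10 and −1.68 in KLF1-/- and between −1.87 and −1.72 in KLF1-/- KLF2-/-. The difference for the mean of both genotypes passed in all 14 fits that left out 1 array, at adjusted p of 0.00749 or below in limma.

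The other Kcnn4 probe set, 1421038_a_at, was dim. It was 5.07, 4.69 and 4.93 in KLF1-/-, 5.25, 5.003 and 4.83 in KLF1-/- KLF2-/-, and 4.82 to 5.90 with a median of 5.26 in WT. The mutant arrays overlapped the WT arrays, and the differences were −0.42 in KLF1-/- and −0.29 in KLF1-/- KLF2-/- (adjusted p = 1 each, limma). WT arrays 9 to 12 were all above WT arrays 1 to 4 on it, by 0.52 on average (adjusted p = 0.355, limma). Against the WT arrays of their own run, the KLF1-/- arrays overlapped (−0.16) and the KLF1-/- KLF2-/- arrays did not (−0.55, unadjusted p = 0.00386, adjusted p = 1, limma). The probe sets therefore differ in size of change by more than 1 log2 unit. No source used here says which transcripts each one reads.

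No difference in Kcnn4 between the mutant genotypes passed. On 1435945_a_at KLF1-/- KLF2-/- minus KLF1-/- was 0.10, with a 95% interval from −0.52 to 0.73 (adjusted p = 1, limma). With the run as a block it was −0.32 (−1.09 to 0.45), so the sign depends on which WT arrays serve as the base. Both intervals hold 0 and reach well to either side of it.

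Slc4a1, the band 3 anion exchanger, was lower on the KLF1-/- arrays without passing the test. On probe set 1434502_x_at it was 11.4, 11.6 and 10.98 in KLF1-/-, 11.2, 12.1 and 10.8 in KLF1-/- KLF2-/-, and 11.7 to 12.9 with a median of 12.2 in WT. On 1416464_at it was 9.43, 9.53 and 9.39 in KLF1-/-, 9.24, 10.28 and 9.16 in KLF1-/- KLF2-/-, and 9.65 to 11.5 with a median of 10.4 in WT. On both probe sets every KLF1-/- array lay below every WT array, and KLF1-/- KLF2-/- array 14 was the mutant array that reached into the WT range. The differences were −0.92 and −1.04 in KLF1-/- and −0.88 and −0.93 in KLF1-/- KLF2-/-, all at an adjusted p of 1 in limma (unadjusted p 0.00635 to 0.0125). For the mean of both genotypes they were −0.90 (95% interval −1.42 to −0.38, adjusted p = 0.572) and −0.99 (−1.54 to −0.43, adjusted p = 0.533, limma). The name ending _x_at marks probes that may also bind other transcripts.

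The size of the Slc4a1 difference moved with the number run. WT arrays 9 to 12 averaged 0.68 above WT arrays 1 to 4 on 1416464_at and 0.31 above them on 1434502_x_at (adjusted p = 0.596 and 0.908, limma). With the run as a block the KLF1-/- differences were −0.70 on 1416464_at and −0.77 on 1434502_x_at, and those of KLF1-/- KLF2-/- were −1.27 and −1.04 (adjusted p 0.907 to 1, limma). For Slc4a1 in KLF1-/- KLF2-/-, leaving out KLF1-/- KLF2-/- array 14 gave −1.29 on 1416464_at and −1.27 on 1434502_x_at, and leaving out array 15 gave −0.73 and −0.59, none of which passed. The third probe set, 1431743_a_at, lay between 4.24 and 4.77 on all 14 arrays, with differences of 0.09 in each genotype (adjusted p = 1, limma).

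Slc2a1, the glucose transporter GLUT1, was bright in every group and did not pass in any comparison. On 1434773_a_at it was 12.4, 13.004 and 12.5 in KLF1-/-, 12.2, 12.4 and 12.4 in KLF1-/- KLF2-/-, and 12.1 to 13.3 with a median of 12.4 in WT. On 1426599_a_at it was 11.2, 12.1 and 10.9 in KLF1-/-, 10.8, 11.1 and 10.5 in KLF1-/- KLF2-/-, and 10.2 to 12.2 with a median of 11.05 in WT. The groups overlapped on both and on the third probe set, 1426600_at, where WT ran from 7.56 to 8.78. The differences were 0.07 to 0.22 in KLF1-/- minus WT and −0.39 to −0.25 in KLF1-/- KLF2-/- minus WT (adjusted p = 1, limma). KLF1-/- KLF2-/- minus KLF1-/- was −0.60 on 1426599_a_at, −0.33 on 1434773_a_at and −0.47 on 1426600_at (adjusted p = 1 each, limma). The 95% intervals against WT were wide, from −0.62 to 1.05 in KLF1-/- and from −1.22 to 0.45 in KLF1-/- KLF2-/- on 1426599_a_at.

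**Figure D2:**
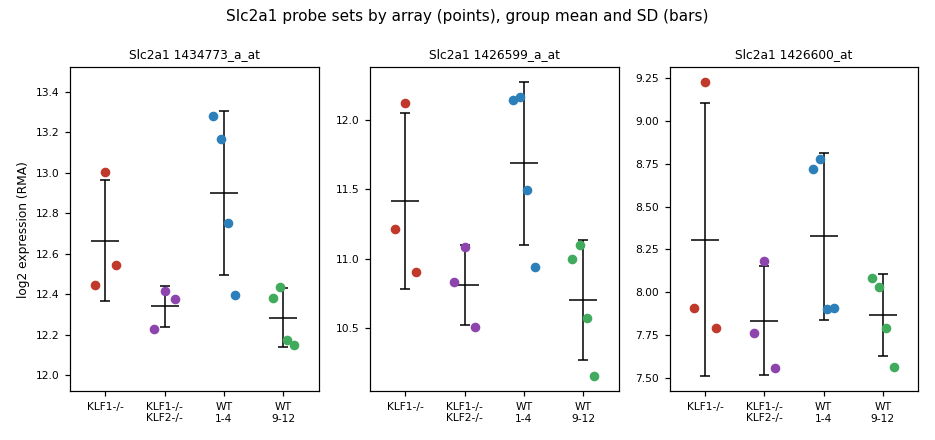
Log2 expression (RMA, vertical axis) of the 3 Slc2a1 probe sets on each array, mutant genotypes left and WT right, the WT arrays split by number run; points are arrays, horizontal bars group means and whiskers the SD. The KLF1-/- KLF2-/- arrays lie at the height of WT arrays 9 to 12, and WT arrays 1 to 4 average 0.46 to 0.98 above those.

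The WT arrays of the 2 runs differed in Slc2a1. WT arrays 9 to 12 were below WT arrays 1 to 4 by 0.98 on 1426599_a_at, by 0.62 on 1434773_a_at and by 0.46 on 1426600_at. These differences did not pass either (adjusted p = 0.437, 0.4 and 0.809, unadjusted p = 0.00925, 0.00558 and 0.163, limma). Over all 22626 probe sets, 1792 had an unadjusted p under 0.05 between the WT arrays of the runs, and 0 were called. By comparison, 434 had such a p in KLF1-/- minus WT (limma), where the WT arrays of both runs were pooled. Within the run the KLF1-/- differences became −0.27, −0.23 and −0.02, and those of KLF1-/- KLF2-/- became 0.10, 0.06 and −0.03 in the same order. The direction on the brightest 2 probe sets thus turned in both genotypes when each was set against the WT arrays of its own run. The 3′ Gapdh probe set minus the 5′ one, which grows as RNA is degraded or shortened, ran from 4.34 to 5.06 in KLF1-/-, from 3.94 to 5.20 in KLF1-/- KLF2-/- and from 3.90 to 5.28 in WT, and its part in the gap between the runs was not tested.

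Stom, stomatin, was read by 6 probe sets, none of which passed. The brightest, 1438910_a_at, was 7.76, 8.06 and 8.10 in KLF1-/-, 8.36, 8.14 and 8.37 in KLF1-/- KLF2-/-, and 7.53 to 8.54 with a median of 8.31 in WT. All mutant arrays lay within the WT range. Its differences were −0.26 in KLF1-/- (95% interval −0.64 to 0.13) and 0.06 in KLF1-/- KLF2-/- (−0.33 to 0.45; adjusted p = 1 each, limma). Probe set 1419097_a_at, near 7, differed by −0.08 and 0.08, and the remaining 4 differed by −0.17 to 0.18. On the dim probe set 1419098_at the KLF1-/- KLF2-/- arrays, at 4.90 to 4.95, lay above WT arrays 9 to 12, at 4.66 to 4.88, but inside the range of WT arrays 1 to 4 (3.99 to 5.43). In the same comparison 2.89% of all probe sets lay higher without overlap.

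The water channel and the urea transporter of adult red cells gave little signal. Aqp1 was 4.62, 4.64 and 4.99 in KLF1-/-, 4.85, 4.59 and 4.65 in KLF1-/- KLF2-/-, and 4.64 to 5.15 with a median of 4.73 in WT. The groups overlapped, with differences of −0.03 (95% interval −0.30 to 0.24) and −0.09 (−0.36 to 0.18). Slc14a1 lay between 4.24 and 5.10 over both probe sets and all arrays, with differences of −0.06 to 0.01. Aqp9 on 1424011_at was 5.91, 5.76 and 5.88 in KLF1-/-, 5.85, 5.68 and 6.27 in KLF1-/- KLF2-/-, and 5.77 to 6.34 with a median of 5.97 in WT. Its differences were −0.17 and −0.09, and those of 1421605_a_at were 0.0028 and −0.03 (adjusted p = 1 throughout, limma). No array reached its median signal on any probe set of Aqp1, Aqp9 or Slc14a1, and changes at so low a signal may not be detectable.

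Xk was dim as well. On 1453866_a_at it was 6.14, 5.74 and 6.22 in KLF1-/-, 5.94, 5.95 and 6.16 in KLF1-/- KLF2-/-, and 5.97 to 6.31 with a median of 6.15 in WT. The differences were −0.12 in KLF1-/- (95% interval −0.36 to 0.13) and −0.13 in KLF1-/- KLF2-/- (−0.37 to 0.12; adjusted p = 1 each, limma). The other probe set, 1450189_at, differed by −0.19 and −0.05. On both, KLF1-/- array 6 was the lowest of the 14 arrays, and the spread of that array's log2 values (interquartile range 3.12) was the widest, against 2.31 to 2.89 in WT.

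**Figure D3:**
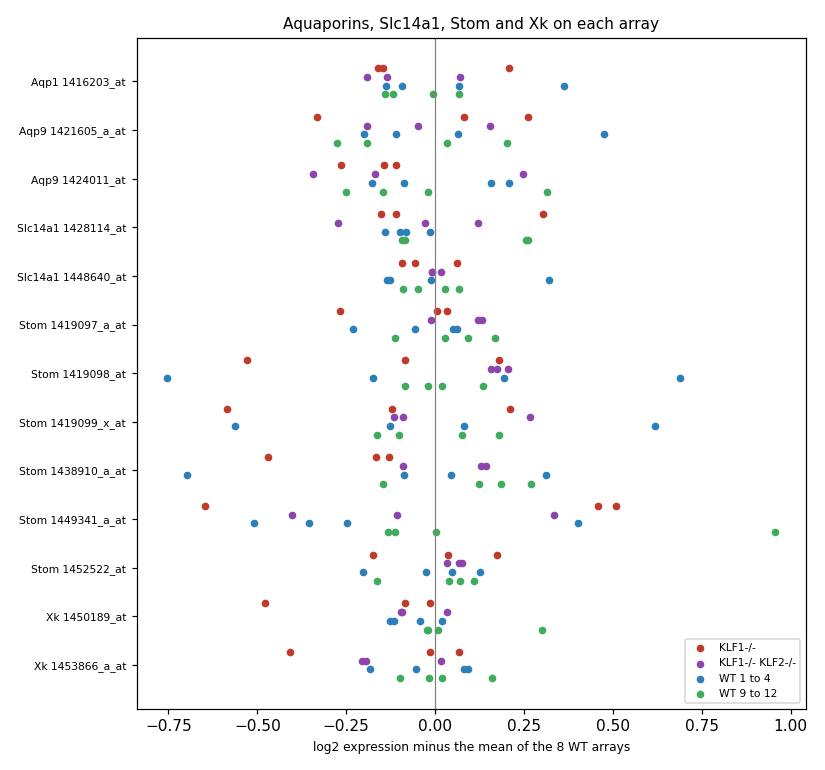
Log2 expression minus the mean of the 8 WT arrays (horizontal axis) for each probe set of Aqp1, Aqp9, Slc14a1, Stom and Xk; each point is an array, with KLF1-/- in the top line of a probe set, then KLF1-/- KLF2-/-, WT arrays 1 to 4 and WT arrays 9 to 12. On each of the 13 probe sets the mutant arrays overlap the WT arrays as a whole.

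Over the 21 probe sets, 1 was called lower in each mutant genotype, the Kcnn4 probe set 1435945_a_at, and 0 were called higher. Among all probe sets 0.0265% were called in KLF1-/- minus WT, all of them lower. In KLF1-/- KLF2-/- minus WT 0.0177% were called lower and 0.00442% higher. For the mean of both genotypes 0.0707% were called, 0.053% lower, with 1 of the 21 among them and lower. In KLF1-/- 4 of 21 had an unadjusted p under 0.05, both probe sets of Kcnn4 and the bright pair of Slc4a1, against 1.92% of all probe sets. In KLF1-/- KLF2-/- there were 3, against 2.11%, and for the mean of both genotypes 4, against 2.76%. The genes were chosen with earlier results of these data known, so these shares are no test of them as a set. Between the mutant genotypes 0 of 21 were called by limma and 0 had an unadjusted p under 0.05, where 0 of all 22626 were called and 0.628% had such a p. The median difference of the 21 was −0.08 in KLF1-/- and −0.06 in KLF1-/- KLF2-/-, beside 0.0059 and 0.0050 for all probe sets.

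**Figure D4:**
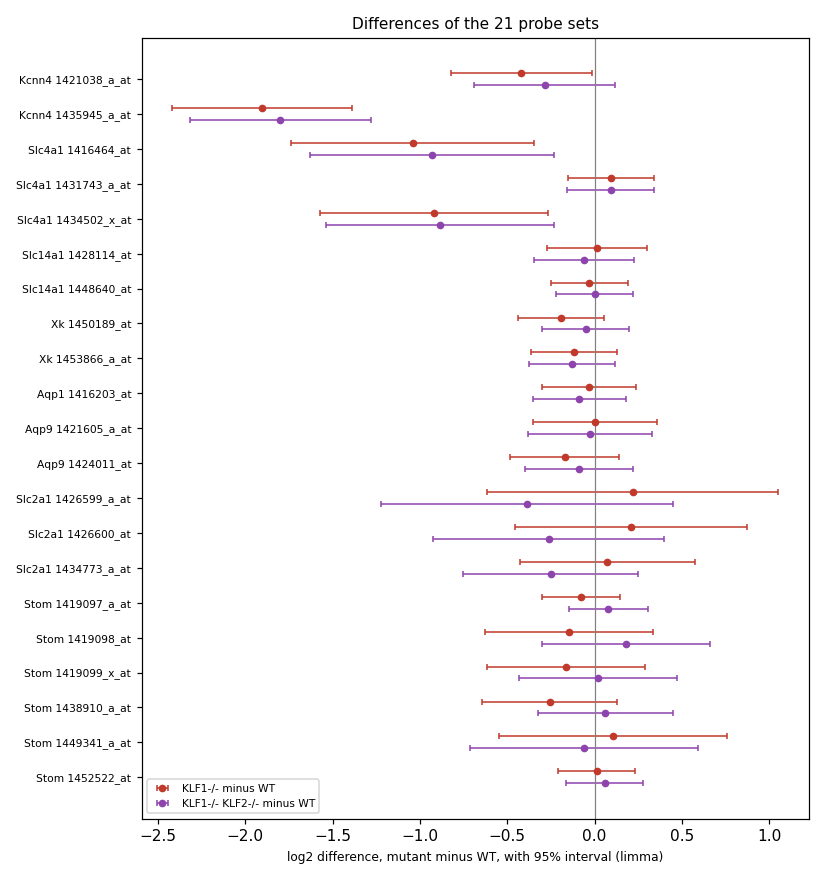
Log2 difference from WT (horizontal axis) with the 95% interval from limma for each of the 21 probe sets, KLF1-/- above KLF1-/- KLF2-/- in each row. The intervals of Kcnn4 1435945_a_at end at −1.39 and −1.28, those of the bright pair of Slc4a1 probe sets also end below 0, and 17 of 21 in KLF1-/- and 18 of 21 in KLF1-/- KLF2-/- hold 0.

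On all 6 mutant arrays together, Kcnn4 1435945_a_at was the probe set of the 21 that lay wholly below the WT arrays, as did 0.106% of all probe sets, while 0 of the 21 and 0.0619% of all lay wholly above. Against WT, the KLF1-/- arrays did not overlap on 3 of the 21, Kcnn4 1435945_a_at and the bright pair of Slc4a1, all lower, while 0.23% of all probe sets were lower in this way and 0.283% higher. The KLF1-/- KLF2-/- arrays lay wholly below on 1 of the 21, against 0.305% of all, and wholly above on 0, against 0.393%. Against WT arrays 1 to 4, the KLF1-/- arrays lay wholly below on the same 3 probe sets (1.4% of all) and wholly above on 0 (1.56% of all). Against WT arrays 9 to 12, the KLF1-/- KLF2-/- arrays lay wholly below on both Kcnn4 probe sets (1.46% of all).

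Other genes of red cell transport showed no called change. Of 36 such genes listed, 27 were measured, and 0 were called in either direction in limma in any comparison. Among all probe sets 0.0265% were called in KLF1-/- and 0.0221% in KLF1-/- KLF2-/-, so 0 among 27 genes says little about them. In limma 2 had an unadjusted p under 0.05 in KLF1-/- and 1 in KLF1-/- KLF2-/-, beside 1.92% and 2.11% of all probe sets. The median difference of the 27 was 0.10 in KLF1-/- and 0.04 in KLF1-/- KLF2-/-, beside 0.0070 and 0.0067 for all genes by their brightest probe set. Car2, the carbonic anhydrase that supplies bicarbonate to band 3, was 12.60 ± 0.43 in KLF1-/-, 12.62 ± 0.65 in KLF1-/- KLF2-/- (SD, n = 3 each) and 11.71 ± 0.56 in WT (n = 8). Its differences were 0.88 and 0.91 (adjusted p = 1 each, limma). The amino acid transporter subunit gene Slc3a2 differed by 0.53 and 0.51, the nucleoside transporter gene Slc29a1 by −0.27 and −0.09, and the potassium-chloride cotransporter gene Slc12a4 by −0.13 and −0.21.

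Paralogs of the 8 genes showed no called change. Of 39 listed, 26 were measured and 0 were called by limma, beside 0.0265% of all probe sets in KLF1-/- and 0.0221% in KLF1-/- KLF2-/-. At such shares, 0 calls among 26 genes says little about them. In each mutant genotype 0 had an unadjusted p under 0.05. For the mean of both genotypes 1 did, Aqp8 (0.43, unadjusted p = 0.0462, limma), beside 2.76% of all probe sets. Slc2a3, the GLUT3 glucose transporter gene, was bright, at 12.70 ± 0.24 in KLF1-/-, 12.56 ± 0.10 in KLF1-/- KLF2-/- (SD, n = 3 each) and 12.47 ± 0.36 in WT (n = 8). The aquaporin gene Aqp8 was 8.54 ± 0.39, 8.41 ± 0.51 and 8.04 ± 0.36 in the same groups, with differences of 0.50 and 0.36 (adjusted p = 1 each, limma). Slc4a2 and Slc4a3, relatives of band 3, differed by 0.06 and 0.18 and by −0.15 and −0.07.

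Among 20 listed membrane partners of band 3 and Xk, 16 were measured, and 1 was called lower in KLF1-/- and 0 in KLF1-/- KLF2-/-, beside 0.0265% and 0.0177% of all probe sets. An unadjusted p under 0.05 in limma was found for 5 of the 16 in each mutant genotype and for 6 for their mean, beside 1.92%, 2.11% and 2.76% of all probe sets. Of those 5, Car2 was higher and Icam4, Dmtn, Rhd and Add2 were lower. The list of partners was also chosen with earlier results of these data known, so these shares are no test of it. The called gene was Icam4, the Landsteiner-Wiener blood group glycoprotein, at −1.69 in KLF1-/- (adjusted p = 0.0477, limma) and −1.63 in KLF1-/- KLF2-/- (adjusted p = 0.0586, limma). For the mean of both genotypes Icam4 was −1.66 (adjusted p = 0.00554, limma). Counted over KLF1-/- and the mean together, the Icam4 call ended in 16 fits with other settings or fewer arrays, with its sign kept. The median difference of the 16 measured partners was −0.12 in KLF1-/- and 0.12 in KLF1-/- KLF2-/-. Across the 14 arrays, Icam4 was also the gene whose levels were most like Kcnn4 (Pearson r = 0.968), followed by Pklr, the red cell pyruvate kinase (0.937), and Zdhhc14, a palmitoyltransferase gene (0.918). Over the 8 WT arrays alone these were 0.757, 0.775 and 0.865. For Slc4a1 the most alike were Zdhhc14 (0.924), the transferrin receptor Tfrc (0.917) and Blvrb, a biliverdin reductase (0.900). These values describe arrays that share genotype, number run and array spread, and 1 probe set of each gene. That of Zdhhc14 has a name ending in _x_at, so its probes may also bind other transcripts. Another Zdhhc14 probe set with this ending was 11.06 ± 0.59 in KLF1-/- and 11.07 ± 0.40 in KLF1-/- KLF2-/- (SD, n = 3 each). It was 11.36 ± 0.42 in WT (n = 8), and the groups overlapped on it.

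Markers of other cells moved with the groups in part. Of 6 megakaryocyte markers 0 were called by limma, yet their mean level was 7.42 to 7.60 in KLF1-/- and 7.72 to 8.18 in KLF1-/- KLF2-/-, against 6.97 to 7.48 in WT. Their median difference was 0.27 in KLF1-/- and 0.58 in KLF1-/- KLF2-/-. In limma 1 and 5 of the 6 had an unadjusted p under 0.05, beside 1.92% and 2.11% of all probe sets. The 9 of 10 erythroid markers measured had a mean of 10.9 to 11.1 in KLF1-/- and 10.7 to 11.4 in KLF1-/- KLF2-/-, against 10.9 to 12.3 in WT. The median difference of the 9 was −0.05 in KLF1-/- and 0.03 in KLF1-/- KLF2-/-, with 8 and 4 of them below 0, 3 in each at an unadjusted p under 0.05 and 0 called by limma. Those 3 were Ermap (−2.22 and −2.06), Tfrc (−1.49 and −1.53) and Klf1 itself (−1.22 and −1.52). Gata1, of the same list, went the other way, at 11.09 in KLF1-/- and 11.13 in KLF1-/- KLF2-/- against 10.67 in WT. The 6 visceral endoderm markers had means of 11.9 to 12.5 in KLF1-/-, 11.94 to 11.99 in KLF1-/- KLF2-/- and 11.2 to 12.9 in WT. The means of the 6 endothelial markers were 6.65 to 7.29, 6.73 to 7.22 and 6.43 to 6.99 in the same groups, those of the 6 mesenchyme markers 10.1 to 10.9, 10.6 to 11.03 and 9.83 to 11.1, and those of the 6 macrophage markers 6.08 to 6.47, 6.49 to 6.75 and 6.23 to 6.74. Median differences in KLF1-/- and KLF1-/- KLF2-/- were 0.20 and 0.06 for endothelium and 0.0026 and 0.38 for mesenchyme. They were −0.20 and 0.17 for macrophages and 0.07 and −0.03 for visceral endoderm. In limma 0 and 2 endothelial, 0 and 1 mesenchyme and 1 and 1 macrophage markers had an unadjusted p under 0.05. For visceral endoderm it was 0 and 0, and 0 markers were called. The part of all these markers in the Kcnn4 and Slc4a1 differences was not tested. Fewer erythroid cells in the captured material and less of a transcript per erythroid cell cannot be told apart in such samples.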

How the data were processed

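Each sample was read on 1 Affymetrix mouse array after amplification of 10 to 20 ng of total RNA primed at the poly(A) tail, per the labels' protocols. Values deposited by the authors are log2 expression, 1 per probe set and array, and span 3.29 to 14.7. Per the submitters' processing notes, GCOS, affy, RMA and limma were used, with no version given. RMA normalizes between arrays, so a change shared by most genes is hidden, and it compresses differences between weak signals. No array copied another, and the number of arrays limits the precision.

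The log2 values were used as deposited by the authors. One mean per genotype was fitted to the 14 arrays by moderated linear models (limma 3.58.1, two-sided, run under R 4.3.3) over 22626 probe sets without the 64 controls, with Benjamini-Hochberg adjustment over all of them and calls at an adjusted p under 0.05. Lists were read through each gene's brightest probe set. The fit was tested on simulated data. The labels do not say whether arrays share litters, and p-values measure the spread between these samples only. Genes were named by rule: all probe sets of the 8 genes, of each list the called genes or otherwise up to 4 of smallest p, and the 3 genes most alike, given for Kcnn4 and Slc4a1. Klf1, Klf2, Hbb-y and single markers were added as checks. Dmtn, Rhd and Add2 were named outside the rule, for an unadjusted p under 0.05 in limma. The members and lists were chosen with earlier results of these data known. Promoters come from RefSeq (GRCm38.p6). Figures came from matplotlib 3.10.9, and tables from pandas 2.3.3 and numpy 2.4.6 under Python 3.11.15.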

Additional observations from a re-analysis of the deposited data

Results flagged for a closer look

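Among the 21 probe sets, 4 had a WT array that stood apart from the other 7, where chance flags about 1 in 20 groups. The probe set of Aqp1 was 5.15 on WT array 1, with the next array at 4.85. Slc14a1 on 1448640_at was 4.70 on WT array 3, with the next at 4.44. Xk on 1450189_at was 4.99 on WT array 12, with the next at 4.71. Stom on 1438910_a_at was 7.53 on WT array 3, below the next at 8.08. All but the last are probe sets below the array median. No probe set of these genes showed a difference between the mutant genotypes that passed limma's test.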

How the results depend on the processing

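No paired analysis was possible because the labels give every array a number of its own. Calls among the 21 probe sets numbered 1 in KLF1-/-, 1 in KLF1-/- KLF2-/-, 0 between the genotypes and 1 for their mean. In KLF1-/- there were 0 with the number run as a block, 0 with the WT arrays of the same run only and 0 without KLF1-/- array 6 and WT array 12 together (adjusted p of Kcnn4 0.0757, 0.467 and 0.15 in limma), the last chosen after seeing the data. Leaving out 1 array gave 0 to 1 in KLF1-/-, 0 to 1 in KLF1-/- KLF2-/-, 0 between them and 1 for the mean. Array weights gave 5, 4, 12 and 3 calls, but the weights ran from 0.167 to 93, their estimation did not converge, and 13656 probe sets were called between the mutant genotypes; with a strong prior on the weights, added later, the counts were 1, 1, 0 and 1. The brightest probe set per gene, bright probe sets only, quantile normalization, median centring, a variance trend and the Gapdh covariate left these 4 counts as they were. Calls over all probe sets in KLF1-/- were 6, against 2 with the block, 1 with the same run only and 1494 with array weights. In KLF1-/- KLF2-/- they were 5, against 10 with the variance trend, 9 after quantile normalization, 8 each with bright probe sets, with the brightest probe set per gene and with the strong prior, and 4704 with array weights. For the mean they were 16, against 31 after quantile normalization and 716 with array weights. Leaving out 1 array gave 2 to 7, 1 to 7 and 6 to 25 in these comparisons. Kcnn4 1435945_a_at, called against WT, kept its sign in every fit against WT. With array weights, 3 of the 12 calls between the mutant genotypes had the sign opposite to the unweighted difference, Stom 1419099_x_at (−0.31, against 0.19), Stom 1452522_at (−0.09, against 0.05) and Slc14a1 1428114_at (0.21, against −0.07). Low signal, below the array median on all 14 arrays, limits 12 of the 21 probe sets.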
